A study of Mus musculus with 4 samples.

Results

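Imprinted growth genes were described in satellite cells, the resident stem cells of muscle, in the presence and absence of the class IIa histone deacetylase HDAC4. The set held 10 genes, Igf2, H19, Meg3, Mirg, Rian, Dlk1, Peg3, Mest, Plagl1 and Grb10, of 43437 gene rows in the tables. The rows were found by gene symbol, and the genes were chosen from their levels in these same libraries, because one control library stood apart for Igf2 and Meg3. The levels of the 10 genes and their differences between groups are therefore given as a description, with no test. All 10 were found, in 11 rows, since Rian has a second row on a patch of the assembly. A mean of at least 1 FPKM (fragments per kilobase of transcript, scaled to the mapped fragments of a library) over the 4 libraries was reached by 8 genes, and Dlk1 and Rian lay under it.

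RNA was sequenced from 2 control and 2 HDAC4 KO libraries, numbered 3 and 4 in each group. All mice were 4-week-old HDAC4fl/fl Pax7CE/+ Cre animals on a C57BL/6 background. Both groups thus carried the floxed Hdac4 alleles and a tamoxifen-dependent Cre recombinase placed under the Pax7 promoter, which is active in satellite cells. Control mice received vehicle and HDAC4 KO mice received tamoxifen (TMX), so that tamoxifen exposure and loss of HDAC4 cannot be told apart. Cells positive for integrin alpha 7 and negative for CD45, CD31, Ter119 and Sca1 were sorted and grown for 24 h. The labels do not say whether the libraries came from separate animals, so the spread between them may be technical.

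An imprinted gene is expressed mainly from the allele inherited from one parent, under the control of a region whose DNA methylation differs between the maternal and the paternal chromosome. Many such genes act on fetal growth: in general, paternally expressed ones favour it and maternally expressed ones restrain it, and a network of them is highly expressed in growing tissues and declines after birth. In skeletal muscle, Igf2 and H19 are known to be switched on as myoblasts differentiate, and the long RNAs of the Dlk1-Meg3 domain are known to be expressed in satellite cells.

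Hdac4 itself was at 5.04 FPKM in control 3 and 5.85 in control 4, against 1.58 in HDAC4 KO 3 and 2.36 in HDAC4 KO 4, so that each HDAC4 KO library lay under each control. Its log2 difference was -1.13 ± 0.18 (SE, n = 2 per group), and the adjusted p from limma over all genes was 0.183, which does not pass. The satellite cell markers summed to between 1181 and 1399 FPKM in each library, with Myod1 the largest part. Of the 10 markers, Des, Sdc4 and Cxcr4 were higher and Myod1, Myf5 and Pax7 lower in HDAC4 KO, without overlap of the groups. Over all genes tested, the groups did not overlap with HDAC4 KO higher in 31.0% and lower in 17.7%. Many decimal points had been lost from the deposited values and were restored. In 8120 of the 12025 genes that entered the test, the ratios between the libraries were taken as settled but the level shared by the 4 values is uncertain by a factor of 10 or more. Such levels, that of Hdac4 among them, are called open. Of the 8 imprinted growth genes above 1 FPKM, Igf2, Meg3, Mirg and Plagl1 had a fixed level, and H19, Peg3, Mest and Grb10 an open one. Read counts are not part of the values used here, so the depth behind each value is unknown.

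Igf2 and H19 lie next to each other on chromosome 7 and were both high in control 3. Igf2 (ENSMUSG00000048583, chr7:142650766-142666816, GRCm38, minus strand, protein-coding, paternally expressed) encodes insulin-like growth factor 2, a growth factor of the fetus that also drives myoblast differentiation. It was at 50.6 FPKM in control 3 and 5.96 in control 4, against 5.74 in HDAC4 KO 3 and 8.96 in HDAC4 KO 4. Control 3 was 5.65 times the highest of the other libraries and 8.49 times their median. The Cufflinks bounds of control 3 ran from 48.5 to 52.7 FPKM, above the upper bound of 10.2 in HDAC4 KO 4. The remaining libraries lay within a factor of 1.56 of each other, with control 4 between the HDAC4 KO libraries, and the groups overlapped.

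H19 (ENSMUSG00000000031, chr7:142575529-142578143, minus strand, long non-coding RNA, maternally expressed) shares enhancers with Igf2 and is the host of miR-675. At its open level it was at 192 FPKM in control 3 and 65.3 in control 4, against 51.4 in HDAC4 KO 3 and 68.3 in HDAC4 KO 4. Control 3 was 2.81 times the highest and 2.93 times the median of the others, which lay within a factor of 1.33, with control 4 again between the HDAC4 KO libraries. Igf2 and H19, which are expressed from opposite parental alleles, thus stood highest in the same library, and the size of the excess was larger for Igf2.

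**Figure D1:**
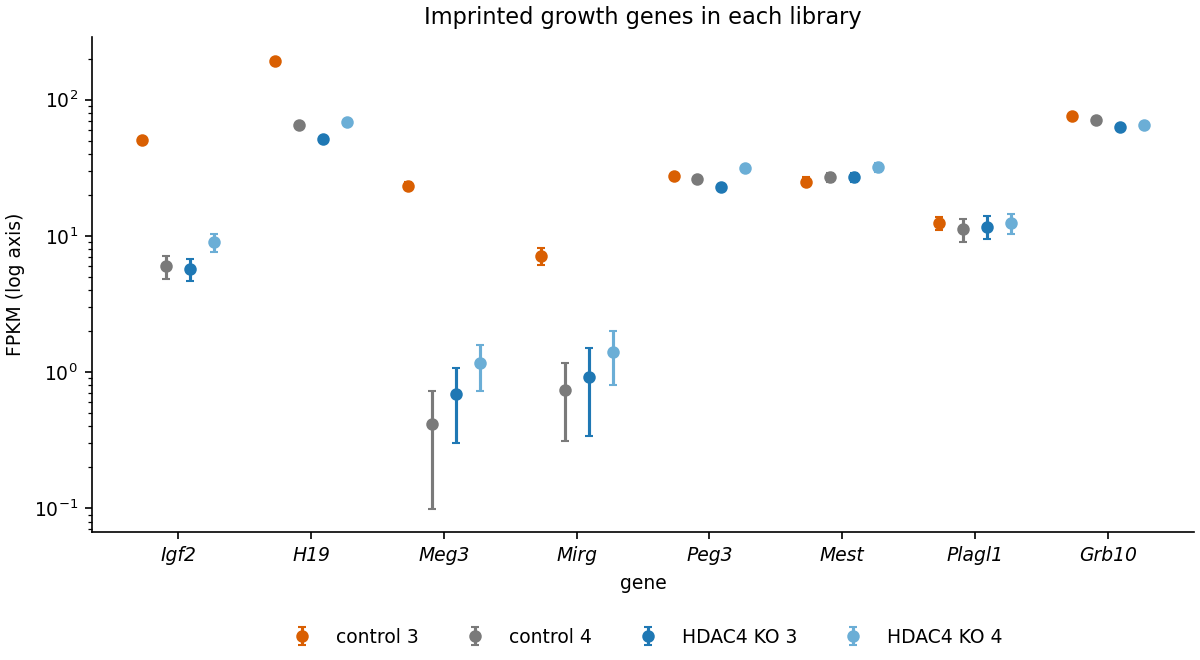
FPKM on a log axis of the 8 imprinted growth genes whose mean reached 1 FPKM, by gene, in control 3, control 4, HDAC4 KO 3 and HDAC4 KO 4; points are restored FPKM, bars the Cufflinks bounds of each estimate, and the levels of H19, Peg3, Mest and Grb10 are open by a common power of 10. Igf2, H19, Meg3 and Mirg lie highest in control 3, with bounds clear of the other libraries, and the other 4 genes lie close together.

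In the Dlk1-Meg3 domain on chromosome 12, the maternally expressed long RNAs Meg3 and Mirg also stood apart in control 3, Meg3 more strongly, and Rian did not. Meg3 (ENSMUSG00000021268, chr12:109541001-109571726, plus strand), a long non-coding RNA that can interact with the Polycomb repressor complex, was at 23.2 FPKM in control 3 and 0.415 in control 4, against 0.689 in HDAC4 KO 3 and 1.16 in HDAC4 KO 4. Control 3 was 20.0 times the highest and 33.7 times the median of the others. The others spanned a factor of 2.79, but their Cufflinks bounds overlapped, from 0.0987 to 0.732 FPKM in control 4 and from 0.731 to 1.59 in HDAC4 KO 4. In the 3 libraries other than control 3, Meg3 was thus near or under 1 FPKM.

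Mirg (ENSMUSG00000097391, chr12:109729764-109749460, plus strand), the host transcript of a cluster of microRNAs, was at 7.11 FPKM in control 3 and 0.736 in control 4, against 0.923 in HDAC4 KO 3 and 1.40 in HDAC4 KO 4. Control 3 was 5.09 times the highest and 7.70 times the median of the others, whose bounds overlapped. Meg3 and Mirg had the same order of libraries: control 4 was lowest and HDAC4 KO 4 second to control 3.

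The other genes of the domain were at or near 0. Rian (ENSMUSG00000097451, chr12:109603940-109661716), the maternally expressed RNA between Meg3 and Mirg that carries a cluster of small nucleolar RNAs, was listed at 0 FPKM in all libraries but control 4, at 0.0154 with bounds of 0 to 0.335. Its row on the patch was listed at 0 throughout. Dlk1 (ENSMUSG00000040856, chr12:109452823-109463336), the paternally expressed gene of the domain, encodes a transmembrane protein related to the Notch ligands that is known in regenerating muscle, and it was listed at 0 FPKM in every library. The excess of Meg3 and Mirg in control 3 was therefore not accompanied by values of Rian or Dlk1 above 0 there.

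Of the 81 microRNA and small nucleolar RNA rows between the start of Dlk1 and the end of Mirg, a span of 296.638 kb with 58 microRNA and 23 small nucleolar RNA rows, 77 were listed at 0 in every library. Values above 0 were found in 3 rows, in control 3 alone, with Mir453 at 7.34 FPKM, Mir376b at 5.28 and Mir541 at 3.94. The lower Cufflinks bound of each was 0. The remaining row, Mir134, has no restored value. Mir453 and Mir541 lie inside Mirg and Mir376b shortly before its start. Libraries made from polyadenylated RNA do not capture mature microRNAs, so these rows do not measure them.

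The mature microRNAs encoded by those 3 rows and by Mir675, inside H19, are shown because they are encoded inside or beside Mirg and H19, which stood apart in control 3. Sequences are from RefSeq (GRCm38.p6), written from 5′ to 3′, with the seed, bases 2 to 8, in capitals. No pair among them shares a seed. Mir675 has no restored value.
miR-453: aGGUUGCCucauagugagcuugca
miR-376b-5p: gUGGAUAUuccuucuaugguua
miR-376b-3p: aUCAUAGAggaacauccacuu
miR-541-5p: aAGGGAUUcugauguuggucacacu
miR-541-3p: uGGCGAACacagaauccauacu
miR-675-5p: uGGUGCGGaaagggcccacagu
miR-675-3p: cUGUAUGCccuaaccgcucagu

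Mir483, which lies inside Igf2, and Mir335, inside Mest, were listed at 0 in every library, although their host genes were well above 0. Symbols of 53 of the 81 small RNA rows of the chromosome 12 span matched RefSeq microRNAs.

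The remaining genes of the set were steady. Peg3 (ENSMUSG00000002265, chr7:6703892-6730421), a paternally expressed zinc finger protein known to mark adult stem and progenitor cells including those of muscle, was at 27.3, 26.0, 22.9 and 31.2 FPKM in control 3, control 4, HDAC4 KO 3 and HDAC4 KO 4, at an open level. Mest (ENSMUSG00000051855, chr6:30723547-30748455), a paternally expressed gene of the hydrolase fold family, was at 25.0, 27.0, 26.8 and 31.9 FPKM in the same order, also open. For both, HDAC4 KO 4 was the highest library, and the groups overlapped.

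Plagl1 (ENSMUSG00000019817, chr10:13060504-13131694) encodes a zinc finger transcription factor that is known to regulate other imprinted genes, Igf2 and H19 among them. It was at 12.4, 11.1, 11.7 and 12.4 FPKM in the same order. Its highest and lowest library differed by a factor of 1.12. Whether Plagl1 bears on Igf2 and H19 in these libraries was not tested. Grb10 (ENSMUSG00000020176, chr11:11930508-12038683), an adaptor that binds the insulin and insulin-like growth factor 1 receptors and restrains their signal, is expressed from the maternal allele outside the nervous system. It was at 75.2, 71.2, 62.5 and 65.3 FPKM at an open level, and both HDAC4 KO libraries lay under both controls.

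Across Peg3, Mest, Plagl1 and Grb10 the ratio of the highest to the lowest library ranged from 1.12 to 1.36, against a median of 1.32 over the 12025 genes tested, which are those with a mean of 1 FPKM or more. At the fixed levels, the order in control 4 and both HDAC4 KO libraries was Plagl1, Igf2, Mirg and Meg3 from highest to lowest. In control 3 it was Igf2, Meg3, Plagl1 and Mirg. The Cufflinks bounds of Mirg and Meg3 overlapped in the former libraries, so the order of that pair there is within the error. FPKM is a value per kilobase of transcript, so levels can be set side by side between genes.

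Standing apart was counted as a log2(FPKM + 1) in one library more than 1 above the highest, or more than 1 below the lowest, of the other 3. By this count Igf2, H19, Meg3 and Mirg, 4 of the 8 genes, stood high in control 3, and none stood apart in another library. Over all genes tested, 84 of 12025 (0.699%) stood high in control 3, and 19 (0.158%) stood low in control 4. The genes were chosen with this library in view, so nothing is read from the share. A gene can also reach the mean of 1 FPKM through control 3 alone, as Meg3 did, so the filter bears on the count. Control 3 was at least 2-fold apart from control 4 for the same 4 genes, with differences of 2.89 for Igf2, 1.54 for H19, 4.10 for Meg3 and 2.22 for Mirg on the log2 scale. None of the 8 was 2-fold apart between the HDAC4 KO libraries, where the largest difference was 0.56, for Igf2. Over all genes, 2.69% were 2-fold apart between the controls and 2.21% between the HDAC4 KO libraries.

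**Figure D2:**
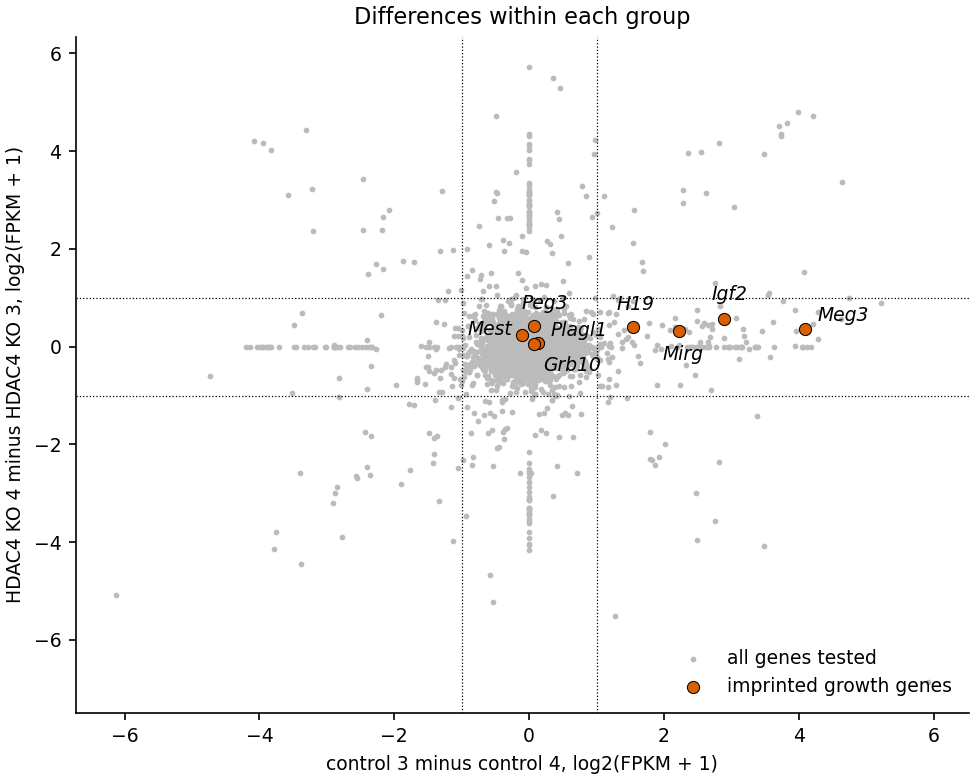
Difference between the control libraries (control 3 minus control 4, horizontal axis) against that between the HDAC4 KO libraries (HDAC4 KO 4 minus HDAC4 KO 3, vertical axis), in log2(FPKM + 1), for the 12025 genes tested in grey and the 8 imprinted growth genes in orange; dotted lines mark a 2-fold difference. H19, Mirg, Igf2 and Meg3 lie beyond the right-hand line, at 1.54 to 4.10, and within the lines on the vertical axis.

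The comparison of HDAC4 KO with control cells asked whether these genes differ when the deacetylase is lost. Log2 differences were taken on log2(FPKM + 1), which understates the change of low genes and lets an open level bear on the size of a difference. The difference was -1.21 ± 0.96 for Igf2, -0.91 ± 0.52 for H19, -1.62 ± 1.34 for Meg3 and -0.81 ± 0.74 for Mirg (SE, n = 2 per group). Without control 3 these became 0.24, -0.14, 0.43 and 0.31, and without control 4 they became -2.66, -1.68, -3.66 and -1.92. The sign of the Igf2, Meg3 and Mirg differences thus turned with the removal of one library, whereas that of H19 stayed below 0 at a smaller size.

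The steady genes differed little. Peg3 was at 0.01 ± 0.17, Mest at 0.17 ± 0.12, Plagl1 at 0.04 ± 0.11 and Grb10 at -0.19 ± 0.09. Grb10 was the only one of the 8 whose groups did not overlap, lower in HDAC4 KO, and it was at -0.15 without control 3. Over all genes, the groups did not overlap with HDAC4 KO lower in 17.7% and with HDAC4 KO higher in 31.0% of genes. The signs of Peg3 and Plagl1 turned under median-ratio scaling and quantile normalization.

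Genes whose pattern over the 4 libraries was most like that of Igf2, H19 and Meg3 were taken by the Euclidean distance between centred log2(FPKM + 1) values, a description over 4 points. The 5 nearest to Igf2 were Ldb3, Itgb1bp2, Arhgap36, Myoz1 and Csrp3, at distances of 0.15 to 0.29. Ldb3, Myoz1 and Csrp3 encode proteins of the sarcomeric Z-disc. Ldb3 was at 8.40, 0.438, 0.349 and 0.860 FPKM in control 3, control 4, HDAC4 KO 3 and HDAC4 KO 4. The 5 nearest to Meg3 were Car3, Mybpc1, Sln, Actn2 and Mir5623, at 0.16 to 0.49. Mybpc1 encodes a slow myosin-binding protein, Sln the calcium pump regulator sarcolipin, and Actn2 a sarcomeric actinin. Mybpc1 was at 24.5, 0.380, 0.466 and 1.03 FPKM. The 5 nearest to H19 were Col2a1, Fhl1, mt-Te, Cav3 and Cox8b, at 0.21 to 0.47, where Cav3 encodes the muscle caveolin and Col2a1 a cartilage collagen.

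Most tested markers of mature muscle fibres were also highest in control 3. Their sum was 2277 FPKM in control 3 and 811 in control 4, against 676 in HDAC4 KO 3 and 784 in HDAC4 KO 4; some levels in the sum are open. Mylpf carried most of the excess, and without it the sums were 884, 694, 598 and 617 FPKM. Of the 7 such markers tested, 5 stood high in control 3. Mylpf, the regulatory light chain of fast myosin, reached 1394 FPKM there against 117, 77.9 and 168, and Ckm, the muscle creatine kinase, reached 75.9 FPKM against 1.06, 1.28 and 3.24. Eno3, an enolase of muscle, did not stand apart, at 575, 629, 527 and 516 FPKM in control 3, control 4, HDAC4 KO 3 and HDAC4 KO 4, and the sarcomeric actinin gene Actn3 was lowest in control 3, at 25.9, 28.5, 33.9 and 38.4. Among the genes of muscle differentiation 4 of 12 stood high in control 3, with sums of 397, 285, 289 and 344 FPKM. The 4 were Myh8, Actc1, Myh3 and Casq2. Myh8 was at 38.6 FPKM in control 3 against 0.598, 0.612 and 1.40, and Casq2 at 9.02 against 1.23, 0.483 and 0.974. Of the 13 rows of this list, 9 were highest in control 3. Myog, the myogenic factor of early differentiation, was instead highest in HDAC4 KO 4, at 33.8 FPKM, and lowest in control 3, at 13.5, both at an open level. The fast myosin genes Myh4 and Myh2 lay under a mean of 1 FPKM and were also highest in control 3. Myh4 was at 0.130 FPKM there against 0, 0 and 0.00311, and Myh2 at 0.340 against 0.00237, 0 and 0.0156. Of the 12 myofibre marker rows with a value, 10 were highest in control 3.

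Among markers of other cells, single genes carried the sums that were highest in control 3, and further genes of these lists were also highest there. Blood cell markers summed to 37.8 FPKM in control 3 and to 5.85, 9.98 and 9.93 in the others, and 2 of the 4 tested, the haemoglobin genes Hbb-bs and Hba-a1, stood high there. Without these the sums were 8.70, 4.73, 9.69 and 8.12 FPKM, and control 3 was not the highest. The remaining tested markers, Lyz2 and Cd68 of myeloid cells, were higher in both HDAC4 KO libraries than in each control. Lyz2 was at 2.25, 1.72, 5.94 and 4.19 FPKM and Cd68 at 2.53, 2.45, 3.19 and 3.37. The myeloid marker S100a8, under a mean of 1 FPKM, was at 3.36 FPKM in control 3 against 0.106, 0.241 and 0.242. Of the 9 rows of the blood cell list, 5 were highest in control 3. Hbb-bs was 16.4 times as high in control 3 as in the highest other library, HDAC4 KO 4 at 1.28 FPKM. Markers of fibro-adipogenic progenitors summed to 557 FPKM in control 3 and to 171, 304 and 343, with 1 of 7, the collagen gene Col1a1, high in control 3 at 395 FPKM against 31.4, 103 and 147. Without Col1a1 the sums were 162, 140, 201 and 197 FPKM, and both HDAC4 KO libraries lay above both controls. Dpt, under a mean of 1 FPKM, was at 0.794 FPKM in control 3 against 0.00796, 0.116 and 0.135. Of the 9 rows of this list, 5 were highest in control 3. Gsn was at 18.0, 19.6, 41.9 and 40.5 FPKM and Cd34 at 49.6, 47.7, 82.8 and 66.7. Endothelial markers summed to 18.6, 9.63, 18.9 and 18.1 FPKM and tendon cell markers to 94.8, 127, 124 and 125. No tested marker of either list stood high in control 3. Under the mean of 1 FPKM, Cldn5 was at 1.23 FPKM in control 3 against 0, 0.0728 and 0.122. Fmod was at 1.17 against 0.0338, 0.0787 and 0.0722. In all, 6 of 8 endothelial rows and 2 of 5 tendon cell rows were highest in control 3. Smooth muscle and pericyte markers summed to 31.9, 23.1, 62.7 and 69.8 FPKM, mostly from Tagln, and glial markers to 16.6, 15.7, 35.1 and 32.0. Both sums were lower in both controls than in both HDAC4 KO libraries. Of the 8 smooth muscle and pericyte rows, 2 were highest in control 3, Rgs5 and Abcc9, both under a mean of 1 FPKM. Rgs5 was at 0.707 FPKM there against 0.0834, 0.172 and 0.298, and Abcc9 at 0.417 against 0.0252, 0.0451 and 0.0855. None of the glial rows was highest in control 3. In bulk RNA a larger share of cells of a type and more RNA per cell cannot be told apart, and the part of these cells in the levels of Igf2, H19, Meg3 and Mirg was not tested.

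**Figure D3:**
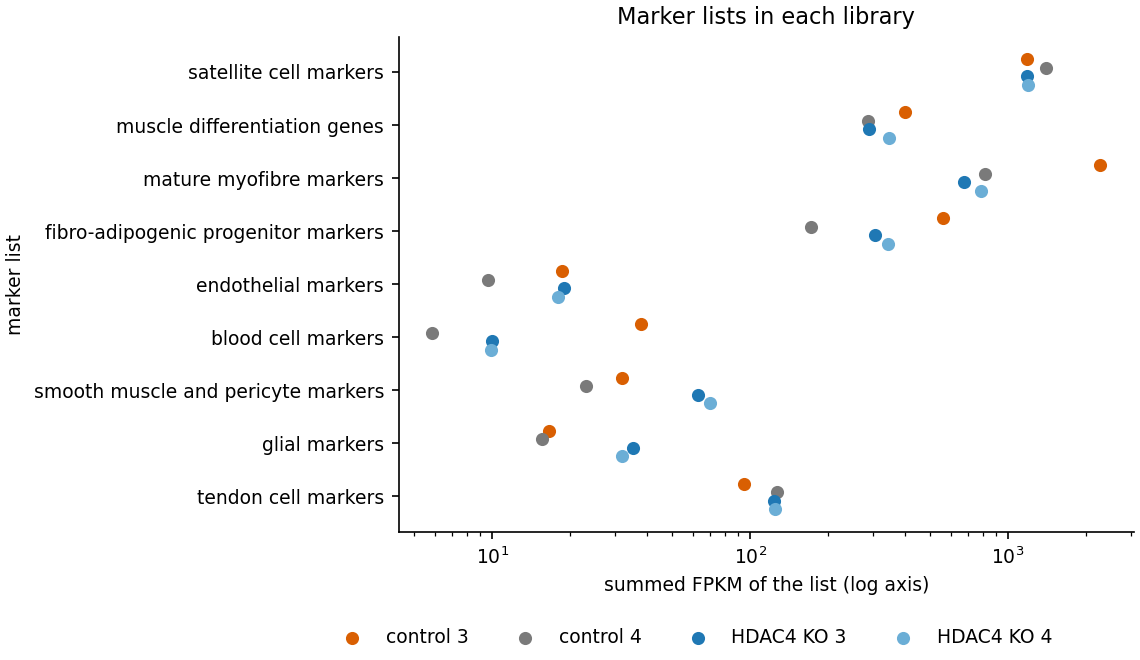
Summed FPKM, on a log axis, of each marker list in each of the 4 libraries; 1 point is the sum over the genes of a list, some at an open level. Mature myofibre, blood cell and fibro-adipogenic progenitor markers lie highest in control 3, at 2277, 37.8 and 557 FPKM. Without the haemoglobin genes or Col1a1, control 3 is not the highest for the blood cell and fibro-adipogenic lists. Those genes were left out because they carried the excess, so nothing is read from its loss. The satellite cell sums, of which Myod1 is the largest part, lie between 1181 and 1399 in every library.

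Around Igf2 and H19, genes within 250 kb did not all share the pattern. Of the 11 tested genes around or inside H19, 5 stood high in control 3. Igf2 was one. Gm27483 and Gm27786, short non-coding RNAs annotated inside H19, were another pair. They may share its reads, which was not tested. Gm27483 also stood low in HDAC4 KO 3, at 1010 FPKM against 5768 in control 3, 2431 in control 4 and 2076 in HDAC4 KO 4. Tnni2 and Tnnt3, which encode fast skeletal troponins I and T and are also on the list of myofibre markers, were the remaining pair. Tnni2 was at 65.3 FPKM in control 3 against 10.8, 8.62 and 15.3, and Tnnt3, at an open level, at 95.6 against 20.5, 24.1 and 36.7. Mrpl23, the tested neighbour nearest to H19 on the far side from Igf2, encodes a mitochondrial ribosomal protein and lies between H19 and Tnnt3. At an open level it was at 29.0, 32.8, 38.0 and 26.3 FPKM in the usual order, and it did not stand apart. Gm7290, a processed pseudogene beyond Igf2, was lowest in control 3, at 1.22 FPKM against 2.17, 3.36 and 2.62.

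**Figure D4:**
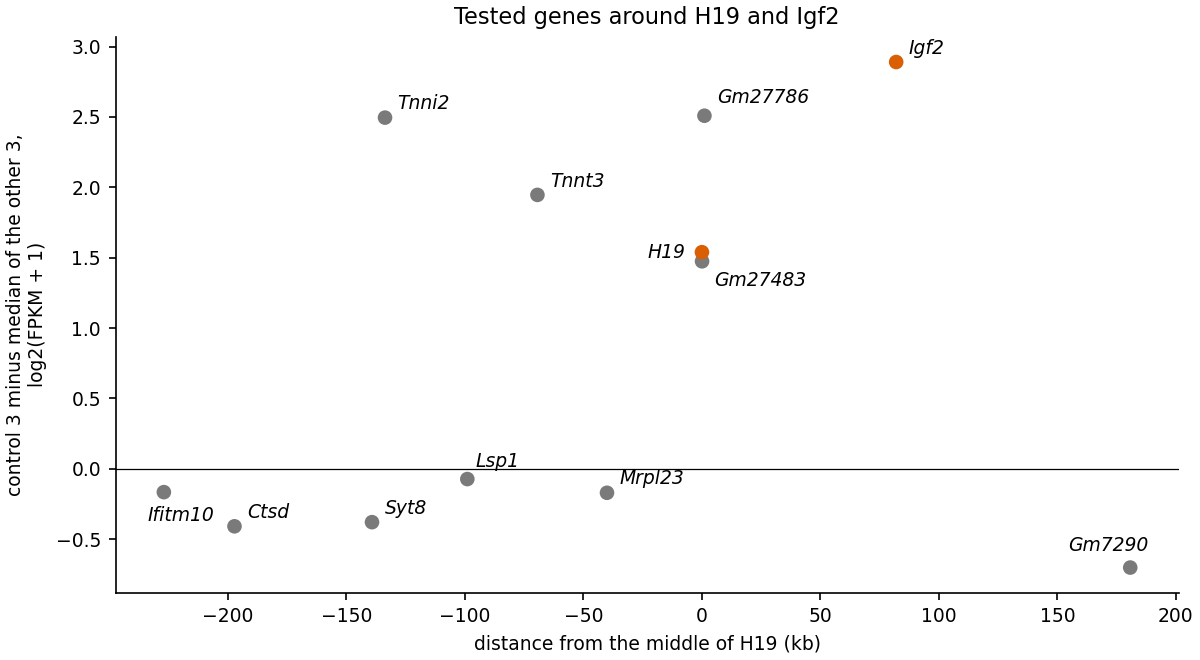
Log2(FPKM + 1) of control 3 minus the median of the other 3 libraries (vertical axis) against the distance in kb from the middle of H19 (horizontal axis), for H19 and the 11 genes tested within 250 kb; H19 and Igf2 are in orange and the other genes in grey. Tnni2, Tnnt3, H19, Igf2 and the RNAs inside H19 lie above 1, and Mrpl23, Lsp1, Syt8, Ctsd, Ifitm10 and Gm7290 lie at or below 0.

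Around the steady genes, none of the tested neighbours stood apart. Zim1, the maternally expressed neighbour of Peg3, was at 1.47, 0.991, 0.636 and 1.01 FPKM. Copg2, a coat protein gene that overlaps Mest and is expressed mainly from the maternal allele, was at 13.6, 12.3, 13.2 and 15.0, and Cep41, on the other side, at 3.48, 3.20, 4.27 and 2.92 at an open level. Beside Plagl1, Sf3b5, a splicing factor gene, had a log2 difference of 0.10 and Ltv1, a gene of ribosome assembly, one of 0.32; the 6 tested neighbours of Plagl1 ran from 0.10 for Sf3b5 to 0.53 for Stx11. Beside Grb10, Fignl1, a gene of DNA repair, was at -0.44 and the snRNA gene Gm24036 at 0.83. Upstream of Dlk1, the microRNA row Gm25297 stood high in HDAC4 KO 4, at 189 FPKM against 68.1 in control 3, 50.8 in control 4 and 27.3 in HDAC4 KO 3.

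Promoter windows of 250 bases before to 50 after a gene's start were given by RefSeq (GRCm38.p6) for 9 of the 10 genes, in 16 windows, with none for H19. They were searched on both strands for the cAMP response element TGACGTCA, the TATA box letters TATAAA and the E-box CAGCTG, a motif that MYOD and myogenin can bind. The cAMP response element was found in 2 of the 16 windows, those of Meg3 and Peg3, and in 1.79% of 32851 windows of all genes. TATAAA was found in 1 window, that of Meg3, against 13.6% of all windows, and CAGCTG in 1 window, of Mest, against 16.3%. The Meg3 and Peg3 windows are shown because these genes share the motif but not the pattern over the libraries: control 3 was 33.7 times the median of the others for Meg3 and 1.05 times for Peg3.

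The Meg3 window (chr12:109540746-109541045, plus strand) holds the cAMP response element at base 194 and, at bases 222 and 226, overlapping matches to TATAAA on opposite strands. In the Peg3 window (chr7:6730370-6730669, minus strand) the element is at base 73. Motif matches are in capitals, and positions count from 1 at the 5′ end of each window.
Meg3: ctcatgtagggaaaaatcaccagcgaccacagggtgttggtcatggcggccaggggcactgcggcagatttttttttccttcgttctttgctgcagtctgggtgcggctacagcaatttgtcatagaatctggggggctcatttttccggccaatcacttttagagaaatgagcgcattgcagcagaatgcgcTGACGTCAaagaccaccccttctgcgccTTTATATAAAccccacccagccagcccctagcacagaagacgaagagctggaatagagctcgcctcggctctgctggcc
Peg3: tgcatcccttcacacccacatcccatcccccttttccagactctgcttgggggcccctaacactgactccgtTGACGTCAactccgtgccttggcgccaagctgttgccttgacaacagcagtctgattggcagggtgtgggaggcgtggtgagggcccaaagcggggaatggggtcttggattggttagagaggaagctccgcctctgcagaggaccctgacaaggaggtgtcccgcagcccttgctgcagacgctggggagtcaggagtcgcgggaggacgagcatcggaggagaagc

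Other imprinted genes were listed from textbook knowledge, with 65 names beside the 10 genes of the set. Of these, 61 were found and 35 tested, 13 listed as paternally and 22 as maternally expressed. The parental allele is that of the list and was not measured in these cells. None of the 35 was called by limma over all genes at an adjusted p under 0.05, where 3 of all genes tested (0.0249%) were called higher and 5 (0.0416%) lower. At an unadjusted p under 0.05, 7 of the 35 were higher and 1 lower, against 10.9% and 3.78% of all genes, and the lowest adjusted p was 0.189. Their median log2 difference was 0.11, against 0.04 over all genes tested, with 0.16 for the paternally and 0.10 for the maternally expressed genes. The groups did not overlap for 16 of the 35 with HDAC4 KO higher and for 6 with HDAC4 KO lower, against 31.0% and 17.7% of all genes. None of the 35 stood high in control 3, against 0.699% of all genes.

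The highest differences were those of Tfpi2, Dcn, Snurf and Impact. Tfpi2, an inhibitor of serine proteases, was at 3.14, 2.43, 6.02 and 5.36 FPKM in control 3, control 4, HDAC4 KO 3 and HDAC4 KO 4, at an open level, with a log2 difference of 0.83 ± 0.15. Dcn encodes the matrix proteoglycan decorin and is also a marker of fibro-adipogenic progenitors. It was at 9.86, 3.69, 10.4 and 10.3 FPKM and stood low in control 4 alone. Snurf, which shares a transcript with Snrpn, was at 0.60 ± 0.20, and Impact, which dampens the stress kinase GCN2, at 0.54 ± 0.14, with both HDAC4 KO libraries above both controls. The tested row of Snrpn itself had a log2 difference of 0.003 ± 0.13, and its groups overlapped.

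The lowest differences were those of Ube3a, Zdbf2, Atp10a and Peg12. Ube3a, a ubiquitin ligase, was at 13.3, 8.58, 7.92 and 7.57 FPKM, so that control 3 was again the highest library, and its log2 difference was -0.42 ± 0.21. Zdbf2, a zinc finger gene, was at 1.68, 1.17, 0.835 and 0.955 FPKM, with -0.35 ± 0.20. Atp10a, a phospholipid transporter, was at -0.34 ± 0.14 and Peg12 at -0.32 ± 0.10. For all of these the groups did not overlap, with HDAC4 KO lower.

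**Figure D5:**
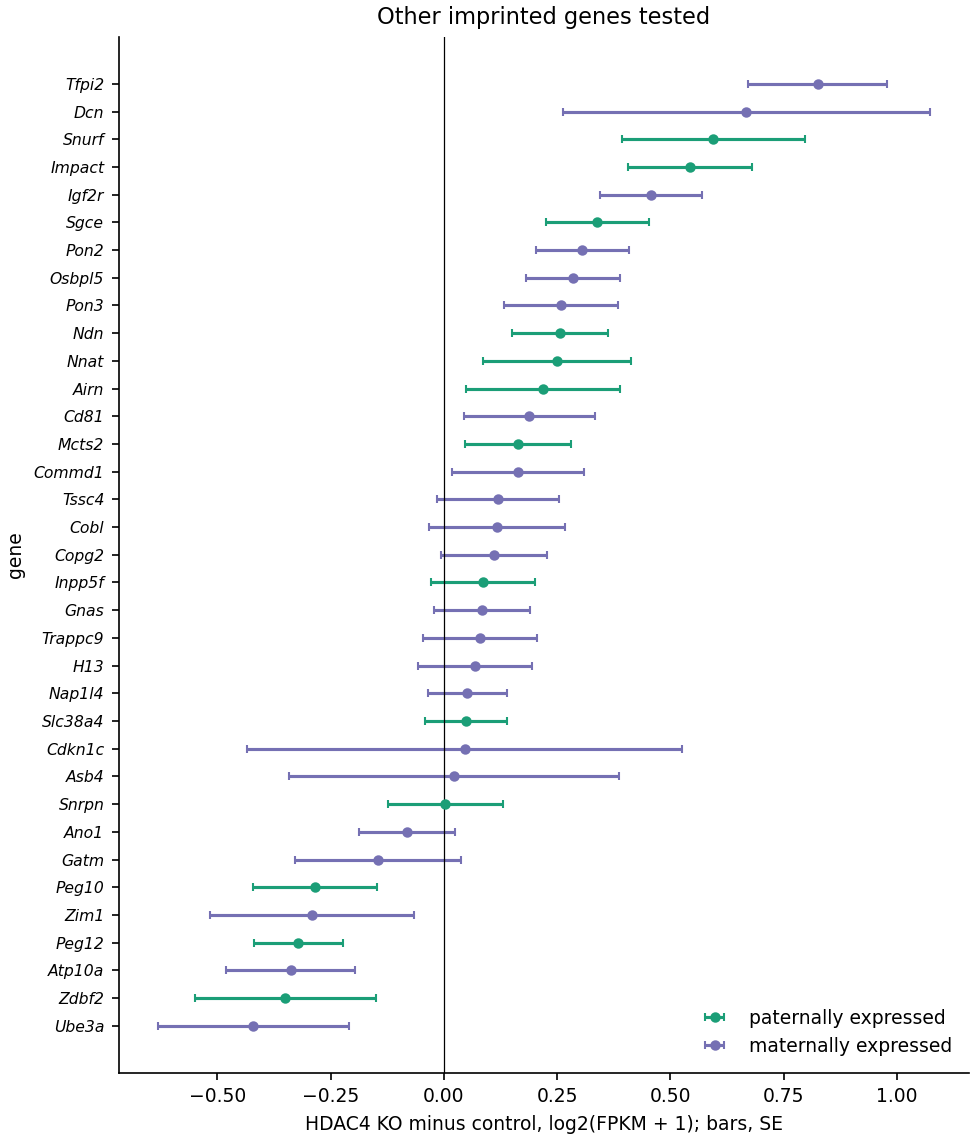
Log2 difference, HDAC4 KO minus control, in log2(FPKM + 1) with its SE (bars), of the 35 other imprinted genes tested, ordered by the difference; paternally expressed genes in green and maternally expressed genes in purple. They run from -0.42 for Ube3a to 0.83 for Tfpi2, with a median of 0.11, and none was called.

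Genes that act with Igf2 and Grb10 were followed on a list of 10 receptors, binding proteins and adaptors, of which 6 were tested and 0 called. Igf1r, the receptor that carries the growth signal of Igf2, was at 10.6, 9.97, 9.04 and 10.6 FPKM in control 3, control 4, HDAC4 KO 3 and HDAC4 KO 4, and Insr, the insulin receptor, at 30.7, 26.8, 24.9 and 29.7. Neither was apart in control 3. Igf2r, the maternally expressed receptor that clears Igf2 and is counted among the other imprinted genes, was at 11.6, 12.8, 16.2 and 18.1 FPKM, with a log2 difference of 0.46 ± 0.11 and an adjusted p of 0.231 by limma. Grb14, an adaptor of the Grb10 family, was at 0.702, 0.480, 1.96 and 1.77 FPKM (adjusted p = 0.213 by limma), and the receptor substrate Irs2 was at 3.10, 3.13, 4.13 and 4.31. Some of these levels are open. The groups did not overlap, with HDAC4 KO higher, for 3 of the 6 tested, Grb14, Irs2 and Igf2bp2, against 31.0% of all genes tested. They did not overlap for Igf2r either, with HDAC4 KO higher. None of these genes passed the test over all genes.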

How the data were processed

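The submitters' processing notes name CASAVA 1.8.2, cutadapt, TopHat, Cufflinks, Cuffdiff and the build GRCm38. For each library the authors deposited gene FPKM from Cufflinks with confidence bounds, and a table whose group FPKM served only to place decimal points and whose fold change, test, p-value and q-value columns were not used. The depth is unknown.

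Decimal points were missing from 11652 to 11900 of 43496 entries per library. They were restored by requiring an estimate midway between its bounds, agreement of the group FPKM digits, and the most likely width of the bounds, with a prior on the ratio between groups (scale 0.1 in log10) and a score lead of 20. Both settings were chosen after seeing the calls and genes they gave. In 589 genes with known points that were hidden, every ratio and 79.8% of levels were recovered, but that check did not reveal ratios that looked misplaced among calls at a wider prior. Genes were left out where no points gave the group value (214), a ratio between libraries was not settled (126), no point put an estimate midway (61), a gene was listed at several places (40) or an estimate had failed (18).

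The 12025 genes whose mean reached 1 FPKM were fitted with limma 3.58.1 in R 4.3.3 on log2(FPKM + 1) with a trended prior, checked on simulated data, and p-values were Benjamini-Hochberg adjusted over all genes. The genes, lists and rule for named genes were chosen with earlier results of these data known. All 10 genes, the other imprinted genes with the 4 highest and 4 lowest differences, and, of the tested neighbours within 250 kb, the nearest on each side and those that stood apart were named; other genes singled out (Igf1r, Insr, Igf2r, Grb14, Irs2, Myog, Hbb-bs, Hba-a1, Lyz2, Cd68, Gsn, Cd34, Col1a1, Actn3, Stx11 and the remaining neighbours of H19), and the marker sums without single genes, were chosen after their values were seen. S100a8, Rgs5, Abcc9, Myh8, Casq2 and Igf2bp2 were also named after their values were seen. Cdh15, Mymk, Mymx, Acta1, Adgre1, Peg13, Copg2os2, Peg3os and Zim3 were not analysed here. Alternatives changed the filter, pseudocount, scaling, prior, libraries and restoring of points.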

Additional observations from a re-analysis of the deposited data

How the results depend on the processing

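The count of called genes over the whole table, 8, rested on the settings. It was 0 with no filter on low values (2742 at an unadjusted p under 0.05), 15 at a mean of at least 5 FPKM, 16 without the trended prior and 2 among genes of fixed level alone. Among protein-coding genes alone it was 63, 57 higher and 6 lower against 3 higher and 5 lower, and 1 of the 8 was among them. Leaving out any one library gave 0 calls, with 830 to 1998 genes at an unadjusted p under 0.05, and the lone library of a group was then assumed to vary like the others. With settings for lost points added after seeing the data, the count was 40 at a ratio scale of 0.2 with no score lead, and 0 at a scale of 0.06 (1775 at an unadjusted p under 0.05). With the replicate number as a block the count was 27, 10 higher and 17 lower, and with crossed numbers, added after seeing the data, 0 (1875 at an unadjusted p under 0.05). The deviations of same-numbered libraries correlated at -0.111 over 2 pairs, which cannot show whether these libraries shared a litter or day. The labels give only the shared number, so the main fit had no block. The cause of these shifts was not tested.

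None of these settings called another imprinted gene. The median log2 difference of the other imprinted genes, 0.11, was 0.049 with no filter, 0.058 after median-ratio scaling and 0.063 after quantile normalization, where that of all genes went from 0.043 to 0.011, -0.0081 and -0.0071. Leaving out 1 library moved the log2 difference of Meg3 over -3.66 to 0.43, Igf2 over -2.66 to 0.24, Mirg over -1.92 to 0.31 and H19 over -1.68 to -0.14. The other settings kept Meg3 at -1.80 to -1.52 and Igf2 at -1.27 to -1.21, put Grb10 at -0.25 after median-ratio scaling, and turned the sign in 4 of 95 values, of Peg3 and Plagl1. The 4 genes apart in control 3 were 3 at a gap of more than 1.5, and over all genes 84 became 281 at a gap of more than 0.5. With 2 libraries per group and unknown depth, small differences cannot be resolved.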

Other observations

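Genes that maintain imprints were followed on a list of 17, of which 15 were tested. None was called by limma, where 0.0249% of all genes were called higher and 0.0416% lower. None had an unadjusted p under 0.05 by limma, against 10.9% of all genes higher and 3.78% lower. None stood high in control 3, against 0.699% of all genes. With 15 genes, nothing is read from these counts. The median log2 difference was -0.06, against 0.04 over all genes tested. Dnmt1, which copies DNA methylation after replication, was at 65.9 FPKM in control 3 and 70.1 in control 4, against 72.2 in HDAC4 KO 3 and 78.3 in HDAC4 KO 4. Uhrf1, which guides it to newly copied DNA, was at 133, 137, 126 and 123 FPKM in the same order. Ctcf, the insulator protein that binds between Igf2 and H19, was at 38.8, 34.5, 35.9 and 41.8. Zfp57, which protects imprints with Trim28, was at 5.83, 5.02, 6.40 and 5.55. Some of these levels are open by a common power of 10, and these 4 genes were chosen after their values were seen.

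Igf2os, the antisense transcript of Igf2, lay under a mean of 1 FPKM and was at 0.372 in control 3 against 0.0634 in control 4, with 0.0244 in HDAC4 KO 3 and 0.0368 in HDAC4 KO 4. The patch copy of Meg3 was at 0.0312 FPKM in control 3 and listed at 0 in the others.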
